A study of Mus musculus with 8 samples.

Results

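The genes of Polycomb repressive complex 2 (PRC2) were followed through maps of N6-methyladenosine (m6A) in mouse primary T cells. The set held 10 genes chosen by name: the catalytic subunits Ezh1 and Ezh2, the core subunits Eed and Suz12, the histone-binding subunits Rbbp4 and Rbbp7, the PRC2.1 subunits Mtf2 and Phf19, and the PRC2.2 subunits Jarid2 and Aebp2. Of these, 9 carried at least 1 m6A peak, among 12413 genes with a peak in all, and Phf19 had no peak in either list. Together they held 59 peaks of 52951, with 27 in PTC-treated cells and 32 in control cells.

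Primary T cells were treated with PTC, an agent the labels do not describe further, or kept as controls, and RNA was taken at 24 h. Each condition had 2 samples of RNA bound by m6A immunoprecipitation and 2 input samples, so that 8 samples fell into 4 groups. The labels give no strain, allele, sorting step or number of animals, and they leave unsaid whether the samples of a group are separate animals or cultures. The authors deposited 1 peak list per condition with no value per sample, so a gene found in just 1 list has no replicate behind that call, no test between conditions was possible, and read depth is unknown.

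PRC2 is a histone methyltransferase that places methyl groups on lysine 27 of histone H3, a mark of silenced genes. EZH1 or EZH2 carries the catalytic domain, which works only when bound to EED and SUZ12, and accessory proteins direct the complex to chromatin in 2 alternative forms, PRC2.1 and PRC2.2. In T cells the complex is known for holding lineage and effector genes silent. m6A is the most common internal modification of messenger RNA. It is written at adenosines in the DRACH consensus (R is a purine, D any base but C and H any base but G), of which GGACT is a frequent form, and it is often found near stop codons and in 3' UTRs.

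Peaks carry no base resolution, so the sequences that lay under them are shown first. Each run is 21 bases of the transcript strand from GENCODE M21 (GRCm38), written with T for U, with the motif in capitals and the candidate adenosine as its central base. The first 3 are the only GGACT sites inside the strongest peak of their gene over both lists, and all 3 lay inside peaks of both lists. The strongest peak over both lists held none in the other listed genes. They are in the coding sequence of Ezh2 (chromosome 6, minus strand, adenosine at 47545745), 8 nt past the stop codon of Mtf2 (chromosome 5, plus strand, 108106953) and in the 5' UTR of Rbbp7 (chromosome X, plus strand, 162760586).
Ezh2: agaagcagGGACTgaaactgg
Mtf2: tgactgtaGGACTgaacgtaa
Rbbp7: ccgagcgaGGACTgcgtgacg

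The next 3 are the GGACT sites that lay in a peak of 1 list only. A Jarid2 3' UTR site (chromosome 13, plus strand, 44921399) was covered in PTC alone. A Jarid2 coding site (44902355) and an Aebp2 3' UTR site (chromosome 6, plus strand, 140651459) were covered in control alone. Both Jarid2 sites lay in weak peaks. In the PTC list, 79.9% of peaks had a lower false discovery rate than the 3' UTR one. In the control list, 96.0% had a lower rate than the coding one. The Aebp2 site lay just upstream of a PTC peak that starts at 140651473, and peak edges are too coarse to separate them. Whether any of the 3 sites differs between conditions was not tested.
Jarid2 3' UTR: actgctttGGACTatttaacg
Jarid2 coding: gaccaaggGGACTgtcacata
Aebp2 3' UTR: ccttttcaGGACTagggtctc

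Suz12 and the first exon of Aebp2 held strong peaks with no GGACT, so other DRACH sites under those peaks are shown, chosen after the values were seen. The Suz12 site is a GGACA (chromosome 11, plus strand, 80031902) under the peak at the stop codon in both lists. The Aebp2 sites (chromosome 6, plus strand, 140623908 and 140624153) are the only 2 DRACH sites of a 690 nt peak that was present in control alone.
Suz12 coding: aaaattatGGACAgaaaataa
Aebp2 first exon, upstream: cgaggcggAGACCatgtcgga
Aebp2 first exon, downstream: agcccaagGGACCgcggggcg

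The PTC list held 23367 peaks in 10859 genes and the control list 29584 peaks in 11390 genes. Each peak carries the authors' fold enrichment and false discovery rate (FDR), which are given here as −log10 FDR and used to describe and rank peaks within a list only. The median −log10 FDR was 6.61 in PTC and 5.47 in control, and the median fold 3.66 and 3.65. All 12 T cell marker genes looked up, such as Cd3e, Lck and Zap70, had peaks in both lists. So did 7 of 8 B cell markers, 6 of 8 myeloid markers and 1 of 4 natural killer markers, and another natural killer marker was in control alone. Genes that mark other cell types thus had peaks in both conditions, and the part of such cells in the peaks of the PRC2 genes was not tested. The lists give presence and not level, so fewer cells of a type and less RNA per cell cannot be told apart.

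Most PRC2 genes were marked in both conditions. Of the 10 genes, 8 had peaks in PTC and in control, none had peaks in PTC only, Eed had peaks in control only and Phf19 had none. Over all genes with a peak, 79.2% were in both lists, 8.24% in PTC only and 12.5% in control only, so a split of 8, 0 and 1 among the 9 listed PRC2 genes is near that of the lists at large. The number of peaks was higher in PTC for 2 of the 8 genes (Mtf2 and Rbbp4), lower in PTC for 4 (Ezh1, Ezh2, Suz12 and Aebp2) and equal for 2 (Jarid2 and Rbbp7). Over the genes in both lists, 16.0% had more peaks in PTC, 41.6% fewer and 42.4% the same number. The strict filter of −log10 FDR of at least 5 again gave 8 PRC2 genes in both and Eed in control only. All genes then gave 79.5% in both, 9.86% in PTC only and 10.6% in control only. The Rbbp4 peaks that passed did not overlap, since they lay in the 3' UTR in PTC and in the 5' UTR in control.

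The direction of the peak numbers depended on which peaks were counted. With −log10 FDR of at least 5, no PRC2 gene had more peaks in PTC, 3 had fewer (Suz12, Mtf2 and Aebp2) and 5 had the same number, and Mtf2 had 3 peaks in PTC and 4 in control. Over all genes in both lists that filter gave 14.2% with more peaks in PTC, 27.8% with fewer and 57.9% with the same number. With the control list cut to its 23367 strongest peaks, the length of the PTC list, 3 PRC2 genes had more peaks in PTC (Jarid2, Mtf2 and Rbbp4), 3 had fewer (Ezh2, Suz12 and Aebp2) and 2 had the same number. All genes in both lists then gave 24.8%, 28.2% and 47.0%.

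**Figure D1:**
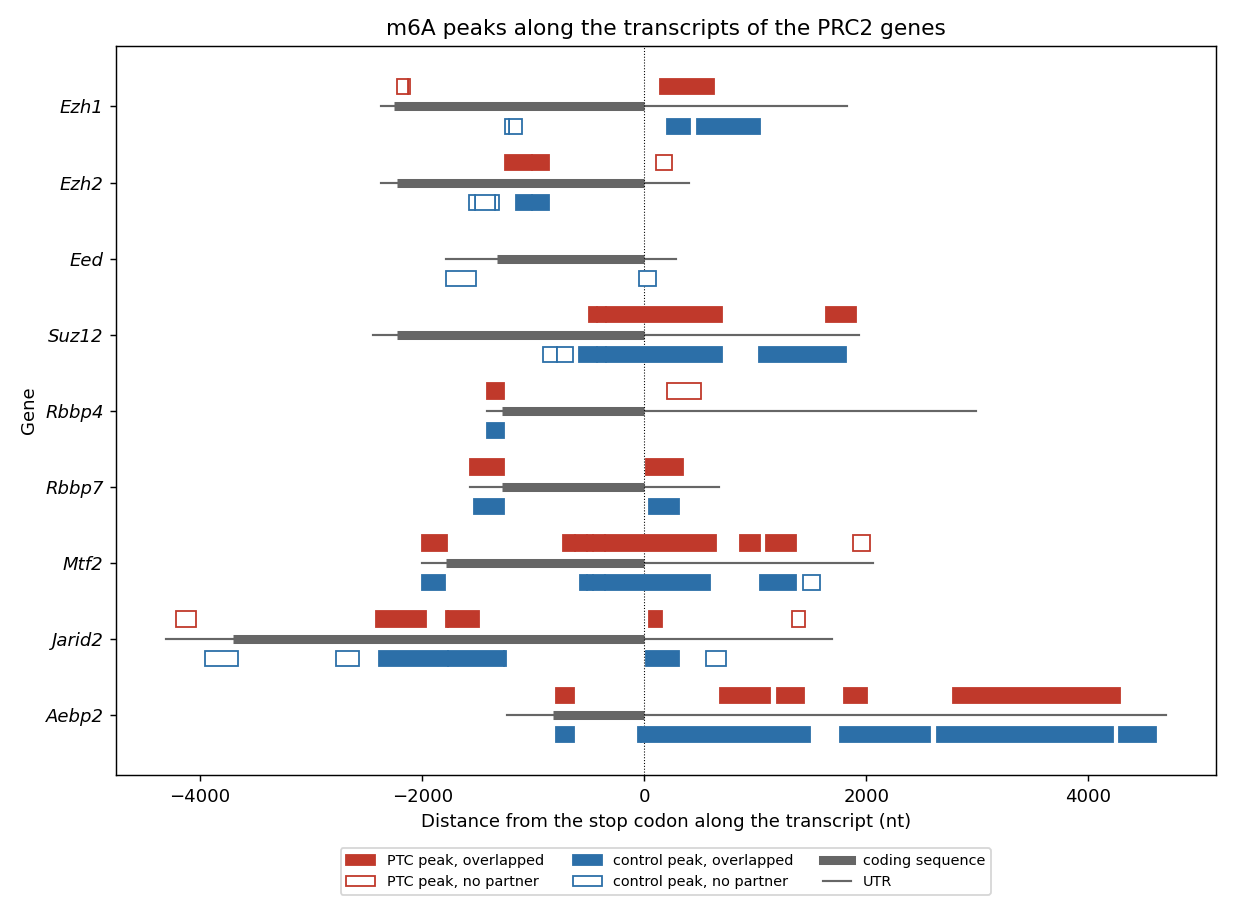
Peaks of the 9 listed PRC2 genes along 1 transcript each, with the distance from the stop codon in nt on the x axis and genes on the y axis. PTC peaks (red) are above and control peaks (blue) below each transcript, filled where the other list has an overlapping peak and open where it has none. Of the 27 PTC peaks 20 are drawn whole, 5 in part and 2 not at all, and of the 32 control peaks 20 whole, 7 in part and 5 not at all, because the drawn transcript lacks their bases; the first-exon peak of Aebp2 is among those not drawn.

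The catalytic subunits carried mostly weak peaks, and the peaks shared by both lists lay in different places in the 2 genes. Ezh1, the catalytic subunit known from resting cells (chr11:101191115-101226463, minus strand), had 1 shared region in its 3' UTR. A PTC peak of 481 nt (chr11:101192315-101192795, fold 4.62, −log10 FDR 8.51) met 2 control peaks, of 211 nt (fold 5.23, −log10 FDR 6.41) and 571 nt (fold 3.96, −log10 FDR 4.44). Ezh1 also had a PTC peak early in its coding sequence (−log10 FDR 2.51) and a control peak in the middle of it (−log10 FDR 2.78), which did not overlap each other. No GGACT of its transcripts lay in a peak.

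Ezh2, the main catalytic subunit of dividing cells (chr6:47530139-47595341, minus strand), was marked in internal coding exons. The shared peak was 450 nt over 3 exon blocks in PTC (fold 1.81, −log10 FDR 6.10) and 300 nt over 2 blocks in control (fold 1.99, −log10 FDR 15.9), and it held the Ezh2 GGACT shown above. Both folds were low for their list, and 88.4% of control peaks had a higher fold than the control one. A weak 3' UTR peak (−log10 FDR 3.89) was in PTC only. A further coding peak (−log10 FDR 3.75) and 2 peaks in exons of transcripts annotated as noncoding (−log10 FDR 2.94 and 1.63) were in control only. Ezh2 had 600 nt under peaks in PTC and 870 nt in control, and only 25.6% of the bases covered in either list were covered in both.

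The core subunits stood at opposite ends. Eed, which binds trimethylated lysine 27 of histone H3 (chr7:89954654-89980983, minus strand), had no peak in PTC and 2 in control. The control peak at the 5' end (chr7:89980714-89980983, 270 nt, all in the 5' UTR) had fold 14.9, the highest of any PRC2 control peak, with a −log10 FDR of only 6.18, and a 67.0% share of G and C. The other control peak, 151 nt across the stop codon, had fold 1.90 and −log10 FDR 2.26. Neither peak held a GGACT.

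Suz12, which holds the complex together (chr11:79993106-80034123, plus strand), had the strongest PRC2 peak of both lists at its stop codon. In PTC the peak covered 1199 nt in 3 exon blocks (chr11:80029278-80032894, fold 5.32, −log10 FDR 80.3), and only 5.29% of PTC peaks were stronger. In control it covered 1289 nt with the same end (chr11:80029188-80032894, fold 7.05, −log10 FDR 80.4), and only 2.56% of control peaks were stronger. The 1199 nt of the PTC peak, 495 nt in the coding sequence and 704 nt in the 3' UTR, all lay within the control peak. The peak held 26 DRACH sites in PTC and 27 in control and no GGACT, a form absent from all coding transcripts of Suz12. A weaker peak lay in the distal 3' UTR in PTC (271 nt, −log10 FDR 9.87) and in control (780 nt, −log10 FDR 7.51), sharing 181 nt.

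Suz12 also had a coding peak in control only (chr11:80025180-80025935, 271 nt in 2 exons, fold 2.63, −log10 FDR 17.0). Among the 6383 control peaks at least as strong, 2.54% had no partner in PTC. The fold of this Suz12 peak was low for its list, and 71.2% of control peaks had a higher fold. In all, 1470 nt of Suz12 were under peaks in PTC and 2340 nt in control, with 1380 nt shared.

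The histone-binding subunits, WD-repeat proteins that also serve other chromatin complexes, were marked at their 5' ends. Rbbp7 (chrX:162760402-162779092, plus strand) had a strong 5' UTR peak in PTC (chrX:162760402-162760702, 301 nt, fold 6.13, −log10 FDR 69.6), which began at the annotated start of the gene. The control peak of the same length (fold 2.78, −log10 FDR 58.5) began 30 nt further in. It held the Rbbp7 GGACT shown above in both lists. A second Rbbp7 peak in the 3' UTR was found in PTC (331 nt, −log10 FDR 15.9) and in control (271 nt, −log10 FDR 18.6). Rbbp7 had 632 nt under peaks in PTC and 572 nt in control, and 81.9% of the covered bases were shared, the highest share of the 8 genes in both lists.

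Rbbp4, the paralogue of Rbbp7 (chr4:129307100-129335370, minus strand), had a weaker peak at its 5' end, with a −log10 FDR of 4.23 in PTC and 6.76 in control. Rbbp4 also carried the strongest PRC2 peak found in PTC only, in the 3' UTR (chr4:129309585-129309885, 301 nt, −log10 FDR 16.5). Among the 6552 PTC peaks at least as strong, 0.778% had no partner in control. Its fold was only 1.62, and 95.9% of PTC peaks had a higher fold. It held no GGACT. How reads that match both paralogues were treated is not given.

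Mtf2 was the only PRC2.1 subunit of the set with peaks. It encodes a Polycomb-like protein that brings PRC2 to unmethylated CpG-rich DNA (chr5:108065674-108109004, plus strand). Its main peak crossed the stop codon and covered 1411 nt in 5 exon blocks in PTC (fold 5.69, −log10 FDR 62.6) and 1201 nt in 4 blocks in control (fold 5.85, −log10 FDR 44.4). The Mtf2 GGACT shown above lay inside it in both lists. A peak in the 5' UTR, with a second GGACT, had fold 9.03 and −log10 FDR 21.2 in PTC, and fold 3.15 and −log10 FDR 11.4 in control. Mtf2 was 1 of 3 genes with more bases under peaks in PTC, at 2314 nt, against 1893 nt in control. Phf19, the other Polycomb-like gene of the set, has 5.04 kb of annotated exons and had no peak in either list.

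The PRC2.2 subunits held the most peaks, 12 in PTC and 13 in control. Jarid2 and Aebp2 also have the longest annotated exons of the set, 9.71 and 9.85 kb. Per kb of exon, Mtf2 had more peaks in PTC (0.878, against 0.515 and 0.711). In control Aebp2 had the most (0.812), and Jarid2 had 0.515. Jarid2, a cofactor that binds nucleosomes and stimulates PRC2 (chr13:44729474-44921643, plus strand), had its strongest peaks in internal coding exons and not at the stop codon. In PTC they were 451 nt (fold 3.20, −log10 FDR 11.9) and 300 nt (fold 3.21, −log10 FDR 23.4). In control 1 peak of 1140 nt over 3 exons spanned the region of both (fold 3.72, −log10 FDR 21.0). A weak peak just past the stop codon was in both lists (−log10 FDR 2.94 in PTC and 6.66 in control). The weaker peaks at the 5' end, in the upstream coding sequence and in the distal 3' UTR did not match between the lists, and each of the 2 Jarid2 GGACT sites in a peak was in 1 list only. Jarid2 had 5 peaks in each list, with 1173 nt under peaks in PTC and 2164 nt in control.

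Aebp2, a zinc-finger subunit that stabilises PRC2 (chr6:140622663-140678472, plus strand), had the most peaks, 7 in PTC and 8 in control. Its long 3' ends were covered in both lists. The transcripts of Aebp2 end in alternative last exons, and peaks lay in the upstream group (chr6:140651473-140655066 in PTC, reaching 140655395 in control) and in the downstream exon (chr6:140677544-140678472 in PTC, chr6:140677514-140678472 in control). The longest PTC peak, 1498 nt with −log10 FDR 29.7, met a control peak of 1588 nt with −log10 FDR 31.6. PTC peaks of 450 nt (−log10 FDR 23.8) and 241 nt (−log10 FDR 15.9) lay closer to the stop codon and met 1 control peak of 1858 nt that ran across it (−log10 FDR 52.1). In the downstream exon, a PTC peak of 360 nt had the highest fold of the set, 29.4, with a −log10 FDR of 7.22, and its control partner of 181 nt had fold 14.2 and −log10 FDR 3.62. All 7 PTC peaks of Aebp2 were overlapped by control peaks. Of the 8 control peaks 7 were overlapped by PTC peaks, 1 of them by a single base.

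The 1 Aebp2 peak without a partner was its strongest control peak, in the first exon (chr6:140623642-140624331, 690 nt, fold 6.22, −log10 FDR 60.2), with 53 nt in the 5' UTR and 637 nt in the coding sequence. Only 4.66% of control peaks were stronger. Of the 1385 control peaks at least that strong, 8 had no PTC partner, which is 0.578%. The peak was 78.3% G and C, where the median of the control list was 48.7% and 2.35% of control peaks reached 70%. Its 2 DRACH sites, shown above, come to 0.29 per 100 nt, and 3.51% of control peaks had so low a density or lower, against a list median of 2 per 100 nt. Of peaks with at least 70% G and C, 32.1% of PTC peaks had no control partner and 65.9% of control peaks had no PTC partner. Over peaks of any composition the opposite share, that of peaks with a partner, was 78.8% in PTC and 60.2% in control. Peaks without a partner were thus more frequent at high G and C than over all peaks, in both lists. The part of base composition in the control-only peak of Aebp2 was not tested.

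**Figure D2:**
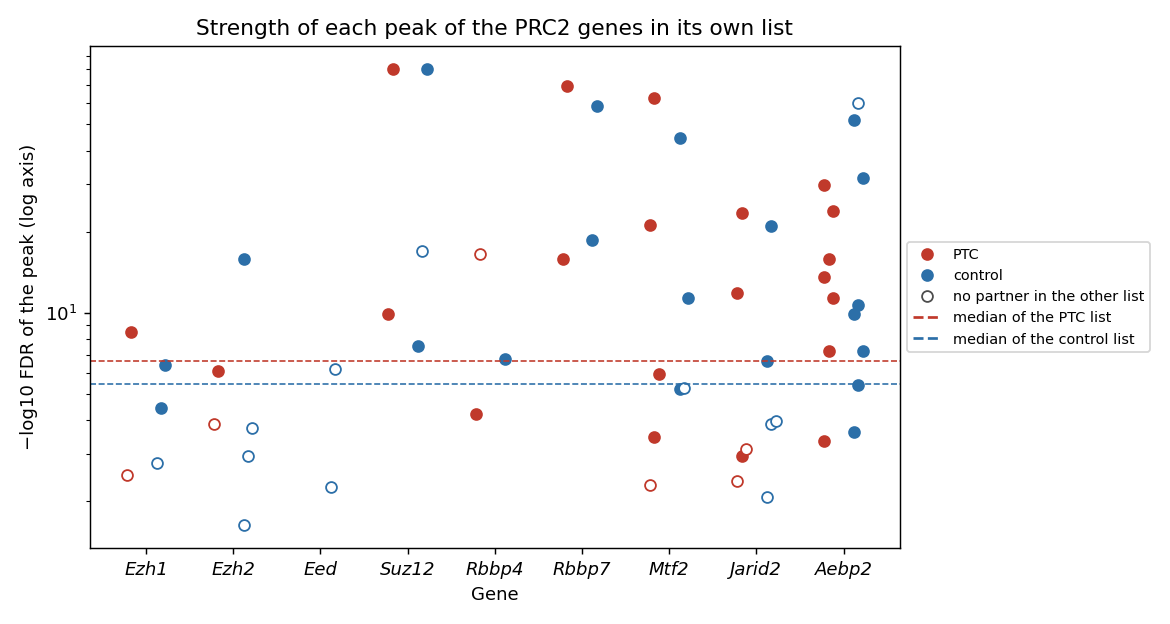
Strength of each PRC2 peak in its own list as −log10 FDR on a log axis, by gene on the x axis, with PTC peaks in red left of control peaks in blue. Open points have no overlapping peak in the other list and dashed lines are the medians of all peaks of each list, 6.61 in PTC and 5.47 in control; most open points lie low, and the open points at 16.5 in PTC (Rbbp4) and at 17.0 (Suz12) and 60.2 (Aebp2) in control lie high.

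The peaks shared by both lists were in general the strong ones. Of the PRC2 peaks, 21 of 27 in PTC were overlapped by a control peak (77.8%, exact Clopper-Pearson 95% interval 57.7 to 91.4), and 20 of 32 in control by a PTC peak (62.5%, 43.7 to 78.9). Over all peaks the shares were 78.8% in PTC and 60.2% in control, inside both intervals. Among the overlapped PRC2 peaks, 1 in PTC (Mtf2) and 1 in control (Aebp2) shared only 1 base with a partner. The median −log10 FDR of the PTC peaks was 11.9 with a partner and 2.82 without, and of the control peaks 10.3 with a partner and 3.81 without. The whole lists gave 9.43 and 3.08 in PTC, and 10.1 and 3.32 in control. The intervals cover counting error only, and peaks of 1 gene are not independent.

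In number of bases the control peaks of the set reached further. Peaks covered 10723 nt of the PRC2 genes in PTC and 15491 nt in control, with 8352 nt in both, 2371 nt in PTC alone and 7139 nt in control alone. Aebp2 made up 3025 nt of the bases in control alone. Of the 8 genes in both lists, 5 had the longer covered length in control, and Mtf2, Rbbp4 and Rbbp7 had it in PTC. Over all genes in both lists, 68.0% had the longer covered length in control. The shared part of the covered bases was 41.3% in the median PRC2 gene, where the median gene of the lists had 57.0% and the middle 50% of genes lay between 37.7% and 74.0%. Relative to annotated exon length, peaks in PTC ranged from 0.229 per kb in Rbbp4 to 0.878 in Mtf2 among genes with a peak, and in control from 0.114 in Rbbp4 to 0.812 in Aebp2.

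**Figure D3:**
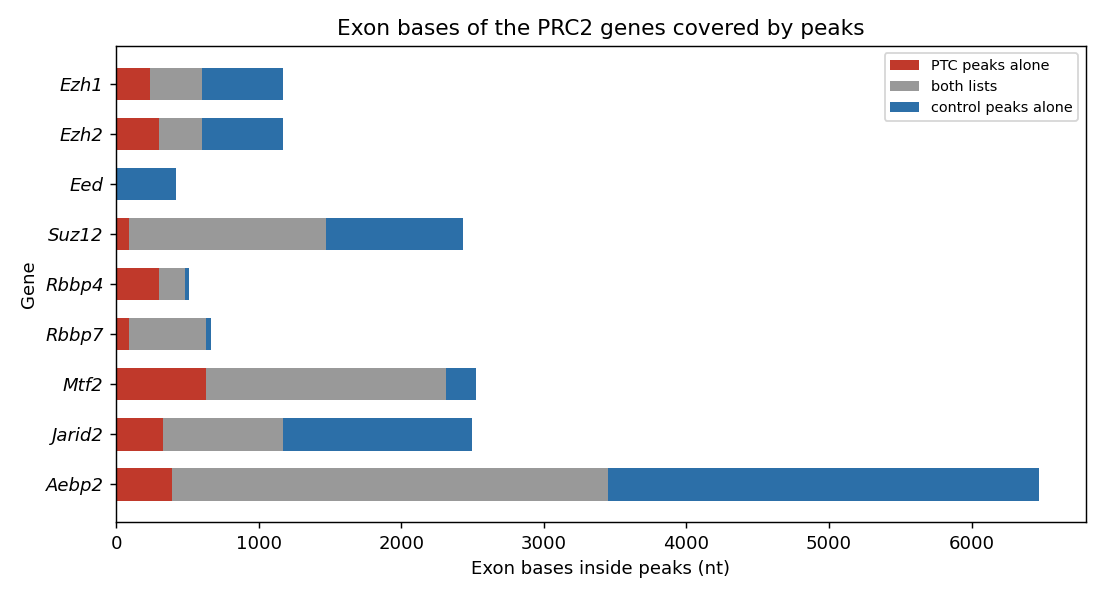
Exon bases under peaks in each listed PRC2 gene, in nt, divided into bases covered in PTC alone (red), in both lists (grey) and in control alone (blue). Aebp2 has the longest bar, at 6475 nt, and Eed has control bases only, at 421 nt.

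The authors' fold enrichment gave another picture of which genes were shared. With only peaks of fold at least 4 counted, 4 PRC2 genes were in both lists (Ezh1, Suz12, Mtf2 and Aebp2), Rbbp7 was in PTC only, and Ezh2, Eed and Rbbp4 were in control only, while no Jarid2 peak reached that fold. Over all genes with such a peak, 59.4% were in both lists, 16.0% in PTC only and 24.6% in control only. The filter kept 8 of the 27 PTC peaks and 9 of the 32 control peaks. It dropped the shared Ezh2 coding peak and kept an Ezh2 peak of −log10 FDR 2.94 in a noncoding transcript. For Rbbp7 and Rbbp4 it kept 1 side of a 5' UTR peak that overlapped between the lists. The folds were 6.13 in PTC and 2.78 in control for Rbbp7, and 3.01 in PTC and 4.48 in control for Rbbp4.

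By position, the 3' UTR held more PRC2 peaks than any other region in both lists. The midpoint was in the 3' UTR for 17 of 27 PTC peaks (63.0%, interval 42.4 to 80.6) and 16 of 32 control peaks (50%, 31.9 to 68.1), where all peaks of protein-coding genes gave 49.7% in PTC and 46.0% in control. Without the many peaks of Aebp2 the shares were 55.0% in PTC and 41.7% in control. The coding sequence held 6 PTC peaks (22.2%, 8.62 to 42.3) and 9 control peaks (28.1%, 13.7 to 46.7), against 40.8% and 41.9% of all peaks. The 5' UTR held 4 PTC peaks (14.8%, 4.19 to 33.7) and 5 control peaks (15.6%, 5.28 to 32.8), against 5.84% and 5.97% of all peaks. The intervals held the share of all peaks in each of these 6 cases. The 5' UTR peaks were those of Rbbp7, Rbbp4, Mtf2 and Jarid2 in both lists, and of Eed in control.

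Midpoints within 200 nt of a stop codon made up 5 of 27 in PTC (18.5%, 6.30 to 38.1) and 5 of 32 in control (15.6%, 5.28 to 32.8), where all peaks gave 21.3% and 15.9%. The stop codon itself lay inside 2 PTC peaks (7.41%, 0.910 to 24.3), those of Suz12 and Mtf2, and inside 4 control peaks (12.5%, 3.51 to 29.0), those of Suz12, Mtf2, Eed and Aebp2. Of all peaks, 25.3% in PTC and 19.9% in control held a stop codon, and the PTC share lay just above the interval of the PRC2 genes. Midpoints within 200 nt of a transcript start made up 4 of 27 in PTC (14.8%) and 4 of 32 in control (12.5%), where all peaks gave 6.29% and 6.69%.

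**Figure D4:**
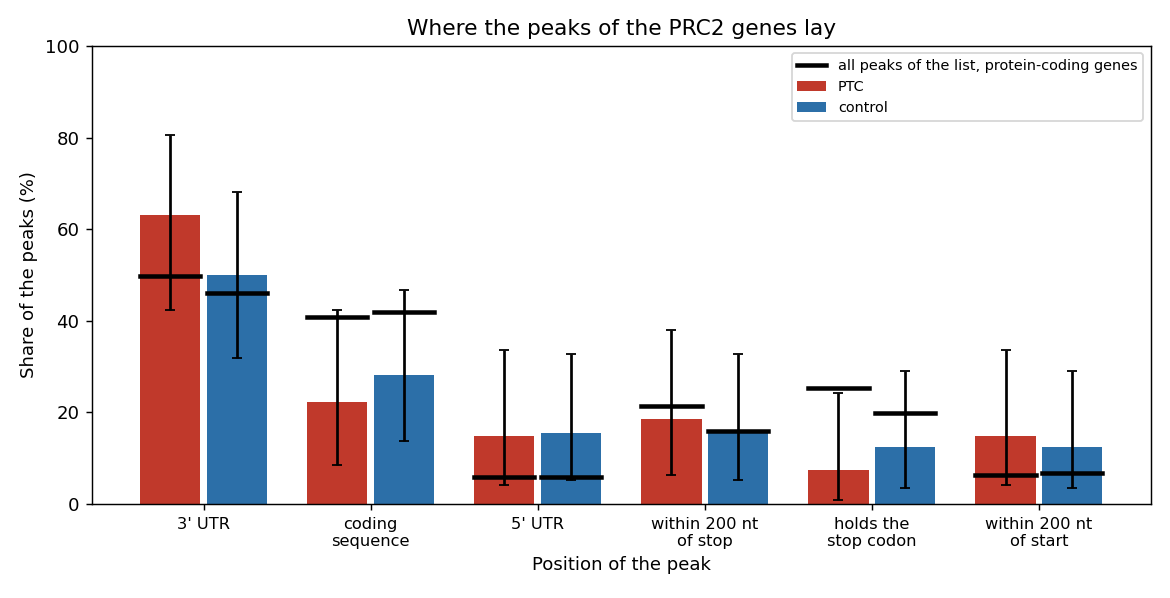
Share of the PRC2 peaks by position, in percent, for 27 PTC peaks (red) and 32 control peaks (blue), with exact 95% intervals as error bars. Black lines are the shares over all peaks of protein-coding genes in each list, which lie inside the intervals except for the stop codon in PTC, at 25.3% above an upper bound of 24.3%.

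GGACT was covered in the PRC2 genes at the rate of the lists at large. The 8 genes in both lists held 28 GGACT sites in their coding transcripts. Of these, 9 lay in PTC peaks (32.1%, 15.9 to 52.4), 10 in control peaks (35.7%, 18.6 to 55.9) and 8 in both (28.6%, 13.2 to 48.7). The shares of all such sites in coding genes of both lists were 31.9%, 36.3% and 27.3%. The reverse complement AGTCC, which is no m6A consensus, had 29 sites, with 6 in PTC peaks (20.7%), 8 in control peaks (27.6%) and 4 in both (13.8%), where all genes gave 25.0%, 30.9% and 20.9%. Of the 11 GGACT sites in any PRC2 peak, 8 were in both lists, and Aebp2 held 5. Within 50 nt of the peak midpoint, 3 of 27 PTC peaks (11.1%) and 5 of 32 control peaks (15.6%) held GGACT, where all peaks gave 12.9% and 11.5%. A match is a description of these letters and not a mapped m6A site.

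Other genes of the Polycomb system were also marked in both conditions for the most part. Of 42 such genes looked up in 4 groups, 37 had a peak, with 36 in both lists, 1 in PTC only, none in control only and 5 in neither. The share in both lists among those with a peak was 97.3%, where all genes with a peak gave 79.2%. A high share was not particular to these genes. Of the markers with a peak, 12 of 12 for T cells, 7 of 7 for B cells and 6 of 6 for myeloid cells were in both lists. For natural killer cells it was 1 of 2. The difference from all genes was not tested. A group of 18 partners of Rbbp4 and Rbbp7 in complexes outside the Polycomb system had 15 with a peak, 13 of them in both lists and 2 in control only. The values that follow are the −log10 FDR of the strongest peak in each list. Among the other PRC2 accessory genes 3 of the 4 looked up were listed, all in both, including Lcor (29.0 in PTC, 12.9 in control) and Epop (15.5 in PTC, 23.4 in control). The symbol of 1 more gene matched no identifier, so it was not looked up. All 3 genes of the lysine 27 demethylase group were in both lists, among them Kdm6a (51.9 in PTC, 40.3 in control) and Uty (36.6 in PTC, 17.6 in control).

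Of 25 genes of PRC1, the complex that ubiquitinates histone H2A, 22 were listed. Bmi1, a PRC1 subunit named in the title of the series, had 1 peak of 175 in PTC and of 120 in control, and Mga, a DNA-binding PRC1 partner, 98.1 in PTC and 73.4 in control. Rybp, a PRC1 subunit, was in PTC only, at 2.86. Of 10 genes of PR-DUB, the H2A deubiquitinase, 9 were listed, with Hcfc1 at 178 in PTC and 106 in control and Foxk2 at 135 in PTC and 116 in control. Among the partners of Rbbp4 and Rbbp7, the NuRD subunit Mbd3 was at 78.0 in PTC and 35.2 in control. Gatad2a, also of NuRD, had the strongest PTC peak of all genes in these 5 groups, with fold 4.06 in PTC, and its strongest control peak was at 110 with fold 2.87. The partners in control only were Mta1, a NuRD subunit, at 3.36 and Chaf1b, a subunit of the chromatin assembly factor CAF-1, at 8.24.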

How the data were processed

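Total RNA of 8 samples had been sequenced as immunoprecipitate or input. The submitters' processing notes name BWA 0.7.12, MACS2 2.1.0 and the build GRCm39, without saying what each did. The peak caller's settings and any pooling of samples were not given in the sources used here. The authors deposited 1 peak list per condition with exon blocks, a fold enrichment (a linear ratio), a p-value and a log10 FDR score for each peak. The p-value was not used in a result. Of the PTC peaks 99.8% and of the control peaks 99.9% lay in the gene of the same Ensembl identifier in GENCODE M21 (GRCm38), so coordinates are read as GRCm38, from 1, with none converted. Among 1-block peaks, 81.9% in PTC and 83.8% in control had a width within 1 nt of a multiple of 30 nt, so edges are no finer than that. Repeated lines (1 in PTC, 2 in control) were dropped.

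Peaks were compared over exon blocks on 1 strand with bedtools 2.31.1, with at least 1 bp shared counted as overlap. Regions are those of the midpoint of the joined blocks in the best-ranked transcript that holds it. Intervals are exact Clopper-Pearson at 95% (scipy 1.17.1) and cover counting error only. Functions were tested on simulated peaks. The PRC2 genes, the other gene groups and the markers were chosen with earlier results of these data known. All 10 PRC2 genes are named, and of other groups each gene in 1 list only and the 2 strongest of the PTC list. Alternatives changed the fold and FDR filters, the overlap, the stop distance and the motif window. A test of counts had been considered and was not run, since the lists hold none.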

Additional observations from a re-analysis of the deposited data

How the results depend on the processing

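Of 97 values recomputed under another setting, 19 moved, where a count was taken to move when it changed by over 1.5 times and a share when it left the 95% interval of its first value. Of the other 78, 8 were shares that stayed in that wide interval but changed by over 1.5 times: in PTC, GGACT (25.9% in whole peaks, 25% at fold 4, 16.7% at −log10 FDR 5, 3.70% for its reverse complement), coding sequence (12.5%) and 5' UTR (25%) at fold 4 and stop codons within 400 nt (29.6%), and in control stop codons within 100 nt (9.38%). With peaks of fold at least 4 only, 4 PRC2 genes were in both lists, 1 in PTC only and 3 in control only, PTC peaks numbered 8 and control peaks 9, 1 gene had fewer peaks in PTC and 1 the same number, and 50% of PTC peaks were overlapped. With −log10 FDR of at least 5, 0 genes had more peaks in PTC and 5 the same number. With 50% of each peak required to be shared, or midpoints within 100 nt, 44.4% of PTC and 37.5% of control peaks were overlapped. A midpoint within 100 nt of a stop codon was found for 3.70% of PTC peaks. GGACT lay within 100 nt of the midpoint in 29.6% of PTC peaks. Within 50 nt, DRACH lay in 81.5% of PTC and 81.2% of control peaks, and the reverse complement of GGACT in 3.12% of control peaks. For DRACH and for GGACT within 100 nt no share over all peaks is given, so no enrichment can be read from these values. DRACH is frequent in peaks at large, with list medians of 2.09 sites per 100 nt in PTC and 2 in control. In lists of equal length there were 27 PTC and 28 control peaks, with 8 genes in both and 1 in control only, and 3 genes had more peaks in PTC and 3 fewer. Added after seeing the data, joining peaks of a gene up to 100 nt apart gave 24 PTC and 28 control peaks, and leaving out Aebp2 gave 20 and 24. No paired analysis was possible because each condition has 1 list and no value per sample, and for the same reason no replicate could be left out. Depth is unknown, so the absence of a peak in a list sets no limit on methylation.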
